A study of Mus musculus with 12 samples.

Results

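Sorted tumor-associated macrophages (TAMs) from B16-F10 melanoma carried transcripts of the melanocyte lineage, and 9 of these transcripts were followed here across 12 bulk RNA-seq samples. They are the rows named Pmel, Dct, Tyrp1, Mlana, Tyr, Sox10, Slc45a2, Trpm1 and Ednrb, 9 of the 55401 genes that each count table lists. The 9 genes were chosen by values already measured in these samples, so their levels and differences are given as a description, without a test. The first experiment set 3 AMPK-KO samples (AMPKfl/flLyz2cre/cre mice) against 3 WT samples (AMPKfl/fl mice), all from day 15 after subcutaneous implantation of B16-F10 cells. The second compared TAMs of the early stage (day 8) with those of the late stage (day 15), with 3 samples of each, all labelled WT and given no treatment. The floxed AMPK allele is shared by WT and AMPK-KO mice, and Cre is driven from the Lyz2 locus, which is active in myeloid cells in general and not in macrophages alone. In the genotype field, AMPK-KO replicates 2 and 3 carry Lyz3 and Lyz4 in place of Lyz2. The methods name female mice on a C57BL/6 background that entered experiments at an age of 5 weeks, and whether animals were pooled is not stated. B16-F10 is an established mouse melanoma line of C57BL/6 origin. The methods give the TAM gate as CD45+CD11b+Ly6C-Ly6G-F4/80+, a gate set on leukocyte markers that pigment cells do not carry. Legends of supplementary figures write the Ly6 part otherwise, as Ly6C+Ly6G+ or as Ly6G-Ly6C+.

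Pigment cells arise from the neural crest, and the transcription factors SOX10 and MITF switch on the genes of pigment synthesis in them. Melanin is made in the melanosome, a lysosome-related organelle, on fibrils of PMEL and by the enzymes TYR, TYRP1 and DCT. EDNRB, a receptor for endothelins, guides pigment cell precursors during development, and it is also made by other cell types, among them endothelial cells.

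Library totals ranged from 71019494 to 84470374 counts, and levels are given as CPM, the counts of a gene normalised to library size with TMM factors. Prkaa1, which encodes the AMPKα1 subunit, stood at 62.8 to 68.8 CPM in the WT samples and at 40.8 to 47.0 CPM in AMPK-KO (log2 fold change -0.60 ± 0.073 SE, adjusted p = 0.000226, edgeR's quasi-likelihood test). The macrophage marker Adgre1, which encodes F4/80, stood at 894 ± 33.6 CPM in WT, 971 ± 40.8 in AMPK-KO, 865 ± 50.6 in early-stage and 936 ± 17.9 in late-stage samples (mean ± SD, n = 3 each). Csf1r, the receptor for CSF1, averaged 942 to 1334 CPM over the 4 groups. It was called higher in AMPK-KO than in WT (1334 and 1211 CPM, adjusted p = 0.0177, edgeR), and other macrophage markers given below differed in both directions. The summed counts of 4 Y-linked genes were 3435 to 4035 per early-stage sample, 0 to 4 per late-stage sample, and 9229 to 12183 per WT or AMPK-KO sample, whereas the methods name female mice throughout. The stages did not overlap in these counts, so stage and the Y-linked difference cannot be told apart in the values of the 9 transcripts. Nothing in the sources says that the samples of a group came from separate animals, so p-values measure only the spread between these samples.

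All 9 genes are annotated as protein coding in GENCODE M21, and their positions are given on GRCm38. The melanosome proteins are encoded by Pmel (ENSMUSG00000025359.10, chr10:128704195-128720238, plus strand) and Mlana (ENSMUSG00000024806.4, chr19:29697824-29708634, plus strand). The 3 enzymes are encoded by Tyr (ENSMUSG00000004651.6, chr7:87424771-87493512, minus strand), Tyrp1 (ENSMUSG00000005994.14, chr4:80834123-80851719, plus strand) and Dct (ENSMUSG00000022129.4, chr14:118012790-118052244, minus strand). The melanosomal transporter gene Slc45a2 (ENSMUSG00000022243.10) lies at chr15:11000721-11029233 on the plus strand, and the cation channel gene Trpm1 (ENSMUSG00000030523.18) at chr7:64153835-64269775 on the plus strand. Sox10 (ENSMUSG00000033006.10) lies at chr15:79154908-79165240 on the minus strand, and Ednrb (ENSMUSG00000022122.15) at chr14:103814625-103844402 on the minus strand. Dct and Ednrb thus share a chromosome but not a locus.

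RefSeq promoter windows (GRCm38.p6) were at hand for 5 of the 9 genes (Tyr, Tyrp1, Dct, Trpm1 and Ednrb), with 2 windows for Trpm1. The 250 bases before each start were searched on both strands for CATGTG, the core of the M-box that MITF recognises, and for CACGTG, the other E-box form it binds. The windows of 4 of these genes held CATGTG, shown in capitals in the stretches of 30 bases below, which are printed because the 3 enzyme genes share a longer match around it.
Tyr: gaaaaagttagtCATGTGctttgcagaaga
Tyrp1: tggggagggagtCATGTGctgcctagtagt
Dct: tgcacttagggtCATGTGctaacaaagagg
Trpm1: ccaaatcctcatCATGTGcccaccccaaac
The stretches are chr7:87493516-87493545 (minus strand) for Tyr, chr4:80834155-80834184 (plus) for Tyrp1, chr14:118052379-118052408 (minus) for Dct and chr7:64153682-64153711 (plus) for Trpm1, with the match starting 21, 46, 150 and 141 bases before the RefSeq start. In GENCODE M21 the Tyrp1 stretch falls in the first exon of 1 longer transcript. The 9 letters TCATGTGCT stood in the Tyr, Tyrp1 and Dct windows, 3 of the 6 windows searched, and in 110 of all 32851 windows (0.335%). The search was set for the shorter strings, so no enrichment is read from the count of the 9 letters. CATGTG alone stood in 12.3% and CACGTG in 6.02% of all windows, and the second Trpm1 window held CACGTG. Dct held a further CATGTG on the opposite strand 232 bases before its start.

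The Ednrb window held neither letter string. The 150 bases before its RefSeq start (chr14:103843702-103843851, minus strand), which lie within the Ednrb gene body as annotated in GENCODE M21, are shown for comparison with the enzyme genes.
Ednrb: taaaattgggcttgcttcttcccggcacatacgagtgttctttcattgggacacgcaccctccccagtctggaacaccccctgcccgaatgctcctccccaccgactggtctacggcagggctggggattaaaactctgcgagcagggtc
A match is a description of letters, and its absence says only that these letters are not in this window.

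Levels were first set side by side per kilobase of exon, since the exons of the 9 genes span from 1057 bases (Mlana) to 14746 bases (Trpm1). In WT TAMs Tyrp1 (99.2 ± 2.76 CPM per kb) and Pmel (98.4 ± 2.61) were highest and overlapped. They were followed by Dct (55.3 ± 0.46), Ednrb (47.2 ± 1.19), Mlana (21.5 ± 3.62), Slc45a2 (13.3 ± 0.44), Sox10 (12.6 ± 0.84), Tyr (4.11 ± 0.45) and Trpm1 (2.08 ± 0.094; mean ± SD, n = 3). Among these, Slc45a2 and Sox10 overlapped. Pmel and Tyrp1 thus had a higher level per kilobase than all but 3.15% of the genes tested in these macrophage samples, whereas 56.0% of those genes were above Trpm1. The order of the 8 pigment genes was the same in every group, apart from Pmel and Tyrp1, which changed places at the top, and Trpm1 was always the lowest of the 9. The place of Ednrb shifted, from the fourth of 9 in WT and AMPK-KO (16.9 ± 1.18 CPM per kb) to the sixth in early-stage (18.5 ± 2.49) and the eighth in late-stage TAMs (2.86 ± 0.51). In early-stage TAMs Ednrb overlapped with Sox10 (15.8 ± 1.88), and in late-stage TAMs it overlapped with no neighbour.

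**Figure D1:**
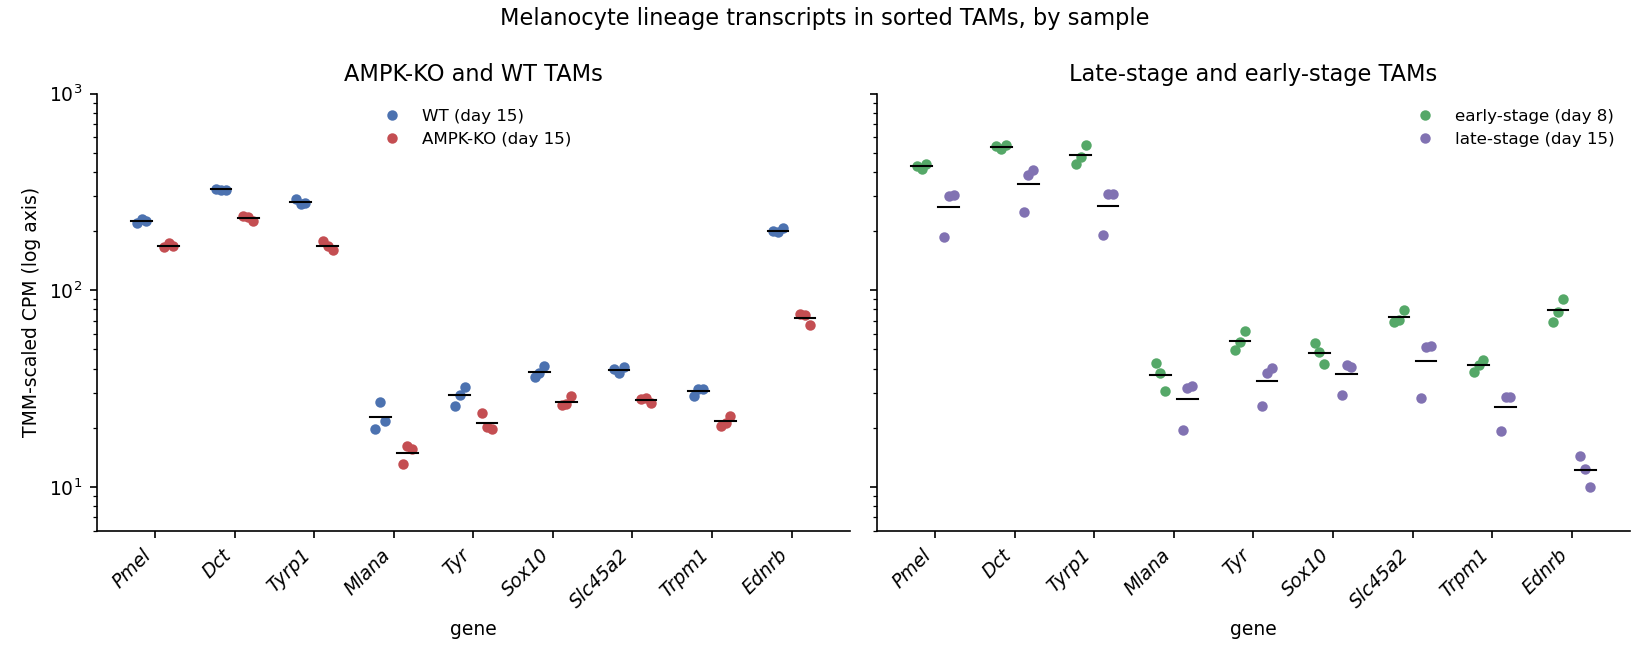
TMM-scaled CPM (log axis) of the 9 transcripts in each sample, with AMPK-KO and WT TAMs on the left and late-stage and early-stage TAMs on the right. Points are samples and bars are means of 3. In the left panel every AMPK-KO point lies below every WT point of the same gene, and in the right panel late-stage replicate 1 is the lowest late-stage point for each gene except Ednrb.

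In AMPK-KO TAMs all 9 transcripts were lower than in WT TAMs. For the 8 pigment cell transcripts other than Ednrb the AMPK-KO mean was 60.1 to 74.9% of the WT mean, and for Ednrb it was 35.8%. The fibril protein gene Pmel stood at 219, 231 and 226 CPM in the WT samples and at 166, 174 and 167 CPM in the AMPK-KO samples, a log2 fold change of -0.42 ± 0.047 (SE). Mlana, whose product helps PMEL mature, stood at 19.7, 27.0 and 21.6 CPM against 13.1, 16.2 and 15.6 CPM (-0.61 ± 0.13). The groups did not overlap for either gene, although the highest AMPK-KO sample of Mlana came near the lowest WT sample. In bulk samples, fewer cells of a type and less RNA per cell cannot be told apart, and this holds for each transcript described here.

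Among the enzymes of melanin synthesis, Tyrp1, the DHICA oxidase, had the largest difference of the 8. It stood at 289, 275 and 277 CPM in WT and at 177, 169 and 160 CPM in AMPK-KO samples (log2 fold change -0.74 ± 0.053). Dct, dopachrome tautomerase, stood at 329, 325 and 324 CPM against 239, 235 and 224 CPM (-0.49 ± 0.045). Tyr, the rate-limiting enzyme tyrosinase, stood at 25.9, 29.4 and 32.3 CPM against 23.8, 20.1 and 19.8 CPM (-0.46 ± 0.11). Tyr was the gene whose groups came closest to each other, and no enzyme overlapped between genotypes.

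The lineage factor and the transport genes stood in the same range. Sox10 measured 36.1, 37.9 and 41.2 CPM in WT and 26.2, 26.4 and 28.9 CPM in AMPK-KO samples (-0.50 ± 0.076). Slc45a2 measured 40.0, 38.0 and 40.5 CPM against 28.2, 28.4 and 26.8 CPM (-0.51 ± 0.066), and Trpm1 29.1, 31.5 and 31.5 CPM against 20.5, 21.3 and 23.0 CPM (-0.51 ± 0.078). These 3 genes had nearly the same log2 fold change, and none overlapped between genotypes. The median log2 fold change of the 8 was -0.50, and that of all 17532 genes tested was -0.0037. In this comparison 9.78% of the genes tested were called lower (adjusted p under 0.05, edgeR), 11.3% were called higher, and 18.4% were lower without overlap between groups. All 9 transcripts met both lower criteria, which follows in part from how they were chosen, and nothing is read from that count.

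In late-stage TAMs the 8 pigment cell transcripts averaged 55.3 to 77.5% of their early-stage means, and Ednrb 15.5%. Pmel stood at 429, 411 and 438 CPM in the early-stage samples and at 187, 302 and 306 CPM in the late-stage samples (log2 fold change -0.69 ± 0.16). Mlana stood at 42.7, 38.0 and 30.8 CPM against 19.4, 31.8 and 32.4 CPM (-0.41 ± 0.19) and was the one transcript whose groups overlapped. Early-stage levels were above WT levels for each of the 8, but the tables were scaled separately and this difference was not tested.

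Among the enzymes, Tyrp1 again had the largest difference of the 8, with 438, 474 and 546 CPM in early-stage and 191, 309 and 308 CPM in late-stage samples (-0.85 ± 0.17). Dct stood at 543, 519 and 548 CPM against 248, 385 and 406 CPM (-0.63 ± 0.15), and Tyr at 49.4, 54.8 and 62.3 CPM against 25.8, 37.9 and 40.2 CPM (-0.68 ± 0.16). For all 3 enzymes late-stage replicate 1 was far below the other late-stage samples, which lay close together.

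Slc45a2 stood at 69.2, 70.2 and 79.5 CPM in early-stage and at 28.3, 51.5 and 51.9 CPM in late-stage samples (-0.73 ± 0.20), and Trpm1 at 38.5, 41.7 and 44.2 CPM against 19.2, 28.6 and 28.7 CPM (-0.70 ± 0.15). Sox10 had the smallest difference, with 53.8, 48.5 and 42.3 CPM against 29.5, 41.9 and 40.7 CPM (-0.37 ± 0.14), and its groups were separated only narrowly. When late-stage replicate 1 was left out, the log2 fold change of Mlana was -0.21 and that of Sox10 -0.22. The median log2 fold change of the 8 was -0.68, and that of all 17630 genes tested was 0.0027. Of the genes tested, 4.88% were called lower, 4.31% were called higher and 15.6% were lower without overlap. Among the 9 transcripts, 7 were called lower (not Mlana or Sox10) and 8 were lower without overlap (not Mlana), counts that again follow in part from the choice of genes. The call count rested on single samples and on the filter, since only Ednrb (1 transcript) was called when early-stage replicate 2 was left out or low counts were not filtered. It was 3 when late-stage replicate 2 was left out and 4 when early-stage replicate 3 was.

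**Figure D2:**
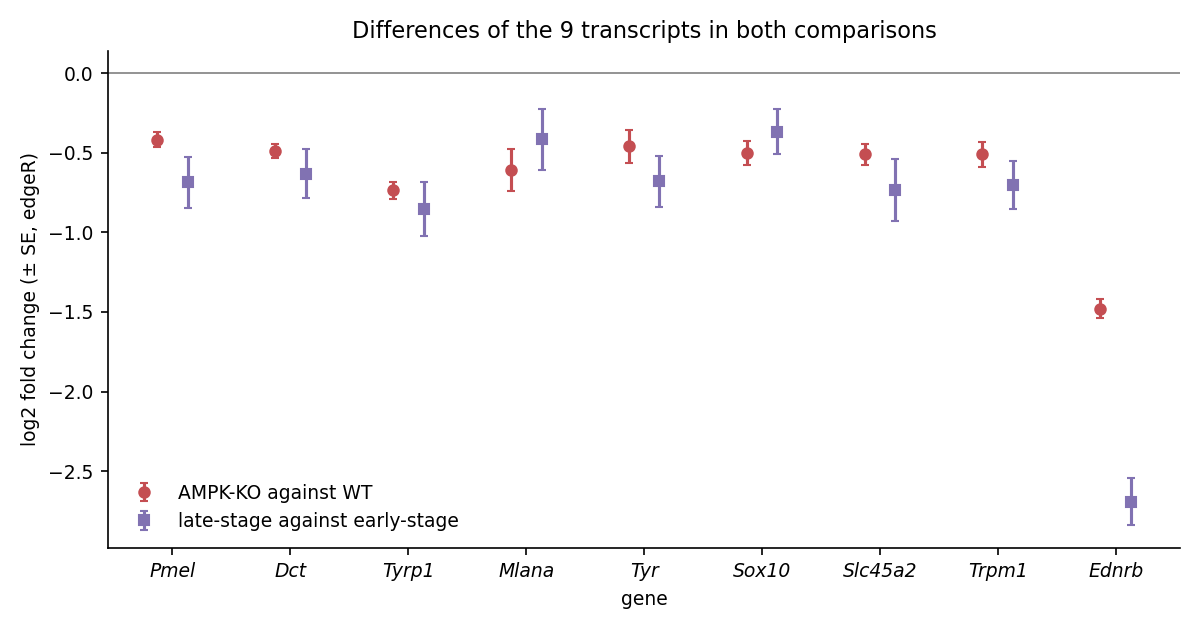
Log2 fold change with its standard error (edgeR) for each transcript, AMPK-KO against WT as circles and late-stage against early-stage as squares. The 8 pigment cell transcripts lie between -0.37 and -0.85 in both comparisons, and Ednrb lies at -1.48 and -2.69.

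Summed over the 8 pigment cell transcripts, the signal was 988, 995 and 993 CPM in the WT samples and 693, 689 and 665 CPM in the AMPK-KO samples. The AMPK-KO mean (682 ± 15.6, SD) was 68.8% of the WT mean (992 ± 3.43, n = 3 each). The early-stage samples held 1663, 1658 and 1791 CPM and the late-stage samples 749, 1188 and 1214 CPM, so that the late-stage mean (1050 ± 261) was 61.6% of the early-stage mean (1704 ± 75.2). In all 12 samples the 8 transcripts together took 0.0663 to 0.177% of the counts. The late-stage spread came from replicate 1, in which the 8 transcripts were at 54.8 to 71.4% of the mean of replicates 2 and 3. Without that sample the log2 ratio of the late-stage to the early-stage sum was -0.51, against -0.70 with it.

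The make-up of this signal varied little. As shares of the summed CPM, which are not corrected for gene length, Dct made up 30.6 to 34.4%, Pmel 22.2 to 25.8% and Tyrp1 24.0 to 30.5% in every sample. The other 5 genes each held between 1.72 and 4.44%. Tyrp1 took a smaller share in both lower groups, with 27.6 to 29.3% in WT and 24.0 to 25.6% in AMPK-KO samples, and 26.4 to 30.5% in early-stage and 25.4 to 26.0% in late-stage samples. Sox10 shifted the other way between stages, from 2.36 to 3.23% in early-stage to 3.35 to 3.94% in late-stage samples. Pmel and Dct had higher shares in AMPK-KO samples (23.9 to 25.2% and 33.7 to 34.4%) than in WT samples (22.2 to 23.3% and 32.6 to 33.3%). Neither the Tyrp1 shares in either comparison, nor the Sox10 shares between stages, nor the Pmel and Dct shares between genotypes overlapped. Late-stage replicate 1, with the lowest sum of its group, had shares of Pmel, Dct and Tyrp1 (25.0, 33.2 and 25.5%) like those of late-stage replicate 2 (25.4, 32.4 and 26.0%).

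**Figure D3:**
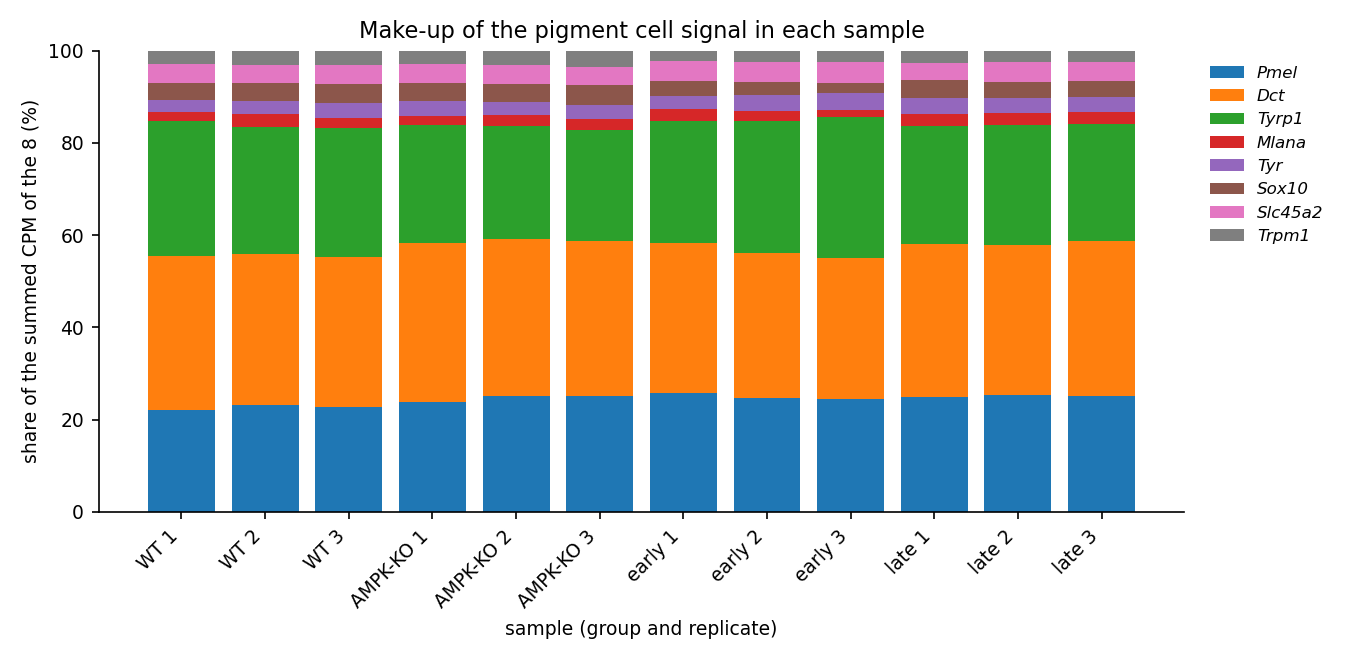
Share of each of the 8 pigment cell transcripts in their summed CPM, in percent, with 1 stacked bar per sample. Dct, Pmel and Tyrp1 fill most of each bar, and the bars differ little although the sums behind them range from 665 to 1791 CPM.

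Across the 6 samples of a table, log2 CPM of the 8 pigment cell transcripts moved together. Pearson's r for the 28 pairs ran from 0.733 to 0.999 (median 0.929) in the AMPK-KO and WT samples and from 0.758 to 0.999 (median 0.975) in the early- and late-stage samples. The points share their libraries and the difference between groups, so these values describe the tables and have no test.

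Ednrb stood apart from the pigment genes in the size of its difference. It measured 200, 197 and 207 CPM in WT and 75.6, 74.5 and 66.3 CPM in AMPK-KO samples (log2 fold change -1.48 ± 0.061), a 2.79-fold lower mean. In early-stage samples it measured 69.2, 77.3 and 90.2 CPM and in late-stage samples 14.3, 12.3 and 9.99 CPM (-2.69 ± 0.15), a 6.47-fold lower mean. The groups were far apart in both comparisons, and every sample of the lower group was under any sample of the higher one. Of all genes tested, 235 had a lower log2 fold change than Ednrb in AMPK-KO and 41 in late-stage TAMs.

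Per 100 CPM of the summed 8 pigment cell transcripts, Ednrb measured 20.2, 19.8 and 20.8 CPM in WT and 10.9, 10.8 and 9.98 CPM in AMPK-KO samples. It measured 4.16, 4.66 and 5.04 CPM in early-stage and 1.91, 1.04 and 0.823 CPM in late-stage samples. The ratio in AMPK-KO was 52.1% of that in WT, and the late-stage ratio was 27.2% of the early-stage ratio. Thus Ednrb differed in both comparisons by more than the pigment genes as a whole. In late-stage replicate 1, where each of the 8 was low, Ednrb was at 128% of the mean of the other late-stage samples. Ednrb correlated with each of the 8 at r = 0.856 to 0.998 (median 0.971) in the AMPK-KO and WT samples. There it moved with the 8 as closely as they did with one another (median 0.929). In the early- and late-stage samples r was 0.523 to 0.84 (median 0.777), below the median of 0.975 among the 8.

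WT and late-stage samples were both taken on day 15, and the means of their summed pigment signals were close (992 and 1050 CPM). By sample, the late-stage sums (749, 1188 and 1214 CPM) lay on both sides of the WT sums (988 to 995 CPM). Ednrb differed far more, at a mean of 201 CPM in WT and 12.2 CPM in late-stage samples, a 16.5-fold difference. These values come from separate experiments with separately scaled tables, in mice described differently in the labels (AMPKfl/fl and WT), and they also differ in Y-linked counts (9229 or more in every WT sample, 0 to 4 in the late-stage samples). The experiment, the labelled genotype and the Y-linked difference cannot be told apart.

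**Figure D4:**
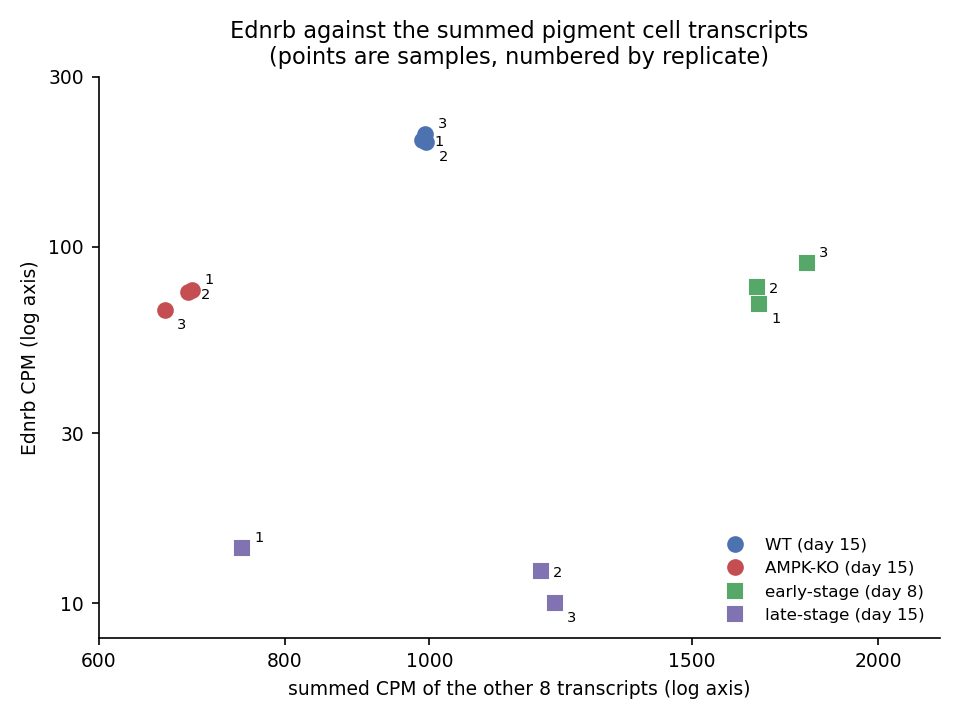
Ednrb CPM against the summed CPM of the other 8 transcripts (both axes log), with 1 point per sample numbered by replicate, circles for WT and AMPK-KO and squares for early- and late-stage TAMs. WT and late-stage replicates 2 and 3 lie near one another along the horizontal axis, at 988 to 1214 CPM, and far apart along the vertical axis. Late-stage replicate 1 lies to their left, at 749 CPM.

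Other genes of pigment cells were taken from a list of 20 that holds none of the 9 transcripts, and these were tested. This list and those below were chosen with earlier results of these data known, so their p-values are not independent support. Of all genes tested in AMPK-KO TAMs, 9.78% were called lower and 11.3% higher. On the list, 8 of the 19 with enough counts fell, 1 rose and 10 did not pass the test, and the median log2 fold change was -0.44. The genes that fell included Mlph (18.6 ± 0.92 to 11.3 ± 0.35 CPM, log2 fold change -0.71 ± 0.089 SE, adjusted p = 0.000277, edgeR), which links melanosomes to their motor. Syt4, a synaptotagmin (48.7 ± 2.58 to 35.9 ± 1.94 CPM), Pax3, a neural crest transcription factor (15.2 ± 1.03 to 10.5 ± 0.40), and Rab38, a GTPase of melanosome traffic (15.4 ± 1.63 to 9.07 ± 1.91), fell too. So did Tspan10, a tetraspanin (19.1 ± 2.22 to 12.9 ± 1.13), Tfap2a, a transcription factor of the neural crest (8.03 ± 0.21 to 5.17 ± 0.33), Mc1r, the melanocortin receptor (5.94 ± 0.85 to 3.28 ± 0.50), and Mcoln3, a lysosomal cation channel (5.58 ± 1.38 to 3.10 ± 0.28). Their log2 fold changes ran from -0.86 (Mc1r) to -0.44 (Syt4), with adjusted p-values (edgeR) up to 0.0124. Kit, the receptor for stem cell factor, which mast cells and blood progenitors also make, rose from 7.71 ± 0.81 to 15.0 ± 0.87 CPM (0.96 ± 0.11, adjusted p = 0.000173). Mitf, which macrophages also make, was at 76.7 ± 3.04 CPM in WT and 67.0 ± 4.98 CPM in AMPK-KO samples and did not pass (-0.19 ± 0.067, adjusted p = 0.0646), while the melanoma stem cell marker Abcb5 had no count in any sample.

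Over all genes tested, 4.88% were called lower and 4.31% higher in late-stage TAMs. Of the pigment cell list, 6 of 19 genes fell, none rose and 13 did not pass, with a median log2 fold change of -0.47. In either direction 12 had an unadjusted p under 0.05, and DESeq2 called 9 lower and 0 higher. Mitf fell from 124 ± 16.4 to 68.8 ± 2.95 CPM (log2 fold change -0.86 ± 0.10 SE, adjusted p = 0.000743, edgeR) and passed in all 11 alternatives. Syt4 fell from 98.5 ± 23.5 to 52.7 ± 11.6 CPM, Rab38 from 21.5 ± 1.96 to 12.4 ± 2.99, and Pax3 from 19.6 ± 0.83 to 13.9 ± 1.72. Oca2, a melanosomal transporter (3.42 ± 0.45 to 1.84 ± 0.44), and Fabp7, a fatty acid binding protein of glia and melanoma (1.80 ± 0.22 to 0.705 ± 0.23), fell as well, with the adjusted p of these 5 at 0.0178 to 0.0455. Tspan10 (27.2 ± 3.42 and 20.2 ± 3.37 CPM) and Mlph (23.8 ± 2.79 and 18.2 ± 3.38) did not pass, with adjusted p-values of 0.0957 and 0.141. The count of 6 rested on single samples, with 1 gene (Mitf) called when early-stage replicate 2 or the filter on low counts was left out. It was 2 when late-stage replicate 1 or 3 was left out and 3 when late-stage replicate 2 was. Pax3, Rab38 and Syt4 fell in both comparisons.

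Genes of the melanosome that macrophages also use for their lysosomes formed a second list of 20, all tested. In AMPK-KO TAMs 3 fell, 3 rose and 14 did not pass, around a median log2 fold change of 0.05. The shares over all genes tested were 9.78% lower and 11.3% higher, and nothing is read from these counts. Gpnmb, a PMEL relative made by macrophages and melanoma cells, fell from 432 ± 8.93 to 251 ± 2.63 CPM (-0.78 ± 0.042, adjusted p = 9.56e-07, edgeR). Cd63, a tetraspanin of late endosomes, fell from 497 ± 30.1 to 301 ± 19.6 CPM, and Dtnbp1, a BLOC-1 subunit, from 96.9 ± 6.35 to 70.2 ± 1.95 CPM. Hps3, Hps5 and Hps6, the subunits of BLOC-2, rose by 0.24 to 0.32 on the log2 scale with adjusted p-values (edgeR) of 0.0137 to 0.0357. Their count was 0 when AMPK-KO replicate 1 or 2 was left out and 1 when WT replicate 3 was.

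Between stages 4.88% of all genes tested were called lower and 4.31% higher. Of the 20 list genes, 2 fell and none rose, and the median log2 fold change was 0.01. They were Gpnmb (743 ± 64.9 to 519 ± 69.8 CPM, -0.52 ± 0.11, adjusted p = 0.0161, edgeR) and Rab27a, the GTPase that MLPH binds (35.8 ± 1.91 to 25.6 ± 1.82 CPM, -0.49 ± 0.095, adjusted p = 0.0119). The count was 1 with no filter on low counts or when early-stage replicate 2 or late-stage replicate 1 or 2 was left out, and 5 when early-stage replicate 1 was. Of the 20, 5 had an unadjusted p under 0.05 in either direction, and DESeq2 called 3 lower and 0 higher.

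The ligands, the other receptor and the processing enzymes of the endothelin system formed a list of 6, of which 3 had enough counts. Edn2 had no count in any sample, and Edn3, the ligand of EDNRB in pigment cell precursors, had 0 to 24 counts per sample. Ednra, the other endothelin receptor, was at 0.262 to 1.62 CPM in every sample, and Edn1 at 1.27 to 3.14 CPM. Ece1, which cleaves the endothelin precursors, rose in AMPK-KO TAMs from 48.1 ± 3.75 to 63.8 ± 4.29 CPM (log2 fold change 0.41 ± 0.075 SE, adjusted p = 0.00342, edgeR), opposite in direction to Ednrb. Between stages none of the 3 passed in edgeR, 2 had an unadjusted p under 0.05, and DESeq2 called 1 lower, which was Edn1 (3.04 ± 0.097 CPM in early-stage and 1.74 ± 0.41 CPM in late-stage samples).

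**Figure D5:**
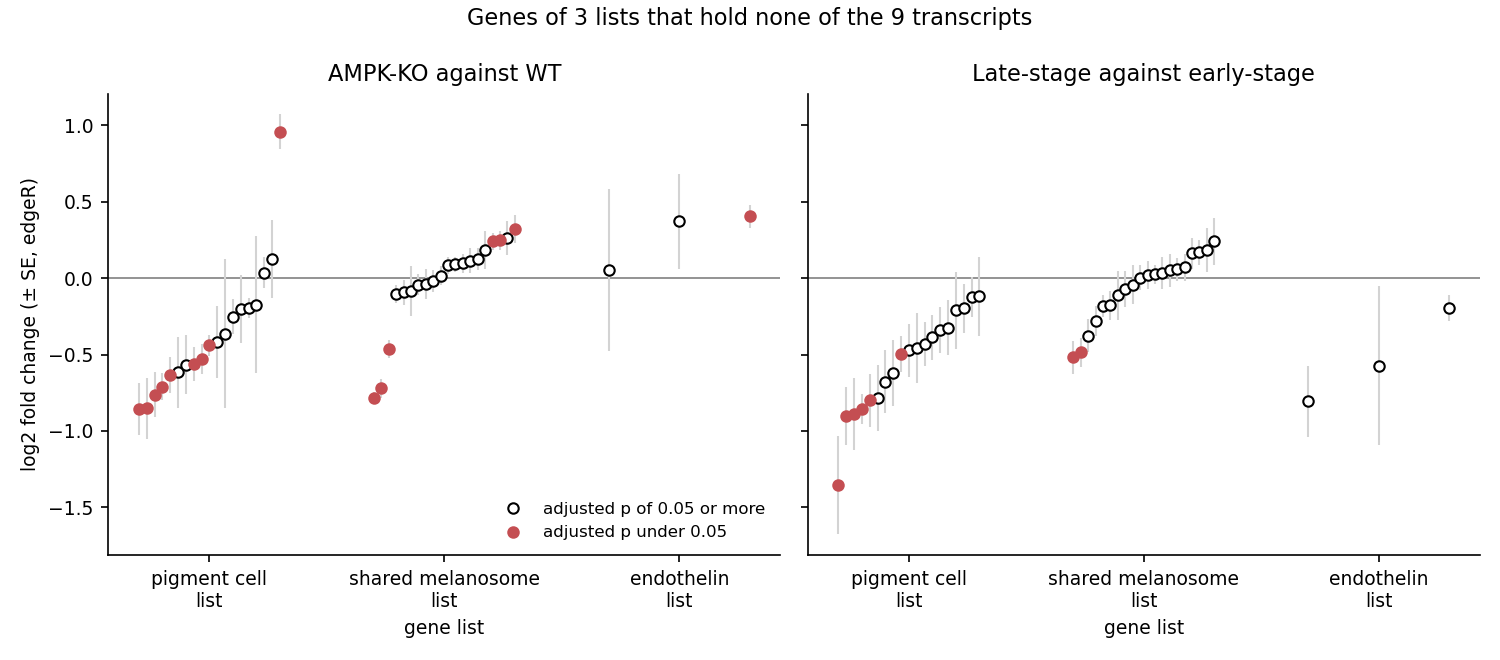
Log2 fold change with its standard error (edgeR) for each tested gene of the pigment cell, shared melanosome and endothelin lists, with filled points for an adjusted p under 0.05. Most of the pigment cell list lies below 0 in both panels, around medians of -0.44 and -0.47, while the shared melanosome list is spread around 0.

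Markers of other cells were also summed per sample. Keratinocyte markers (8 genes, Krt1 without a count) summed to 1.32 to 3.37 CPM, and the Schwann cell factors Sox2 and Foxd3 had no count in any sample. Of the 8 Schwann cell markers, Mbp and Egr2, which leukocytes also make, carried most of the sum (89.9 to 129 CPM). Egr2 alone (1 gene) rose in AMPK-KO TAMs, and between stages none passed in edgeR, with 3 at an unadjusted p under 0.05. Fibroblast and mural markers (8 genes, led by Col1a1) went from 589 to 632 CPM in WT to 761 to 837 in AMPK-KO samples, with 5 higher, and from 832 to 902 CPM in early-stage to 404 to 576 in late-stage samples, with 3 lower. These markers thus moved opposite to the pigment transcripts between genotypes and in the same direction between stages. Endothelial markers (8 genes), whose cells also make Ednrb, went from 57.1 to 69.2 CPM in WT to 125 to 129 in AMPK-KO samples, with 2 higher and 1 lower. Pecam1, which macrophages make too, rose from 37.5 ± 1.71 to 91.2 ± 1.20 CPM, and Kdr, a VEGF receptor, from 12.5 ± 2.15 to 24.4 ± 1.12 CPM (adjusted p = 0.000302, edgeR). Cdh5, which encodes VE-cadherin, fell from 3.74 ± 0.35 to 2.53 ± 0.36 CPM (adjusted p = 0.0476, edgeR). Between stages they went from 100.1 to 100.8 CPM to 86.7 to 92.0 CPM, with 1 lower (Kdr).

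T cell markers (6 genes) rose in 5 of 6 in AMPK-KO TAMs (76.5 to 91.5 CPM in WT, 148 to 156 in AMPK-KO) and in 2 of 6 in late-stage TAMs (128 to 136 and 157 to 188 CPM). The 3 tested neutrophil markers rose in AMPK-KO (95.4 to 101 and 158 to 160 CPM, nearly all Csf3r) and 2 of 3 fell in late-stage TAMs, where the sums overlapped (73.6 to 87.1 and 64.2 to 79.2 CPM). In WT and AMPK-KO samples S100a8 averaged 1.05 and 2.10 CPM and S100a9 0.697 and 2.47 CPM. Ly6g had no count in these samples, and Mpo and Camp had too few counts to be tested. Macrophage markers (8 genes) summed to 7469 to 7733 CPM in WT, 7428 to 8005 in AMPK-KO, 6585 to 6798 in early-stage and 6281 to 6343 in late-stage samples. Of these, 3 rose in AMPK-KO, namely Ptprc (log2 fold change 0.68), Itgam (0.55) and Csf1r (0.14). In the same comparison 2 fell, Cd68 (-0.55) and Mrc1 (-0.51), and 1 (Mrc1) fell in late-stage TAMs. For all marker counts, the shares over all genes tested were 11.3% higher and 9.78% lower in AMPK-KO. They were 4.31% higher and 4.88% lower in late-stage TAMs. The part of these other cells in the levels of the 9 transcripts was not tested.

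Among the 16812 genes tested in both tables, those whose log2 CPM was most like the mean of the 8 pigment cell transcripts were ranked by the lower of the Pearson correlations over the 6 samples of each table. The first 10 were Fkbp9, Ttyh2, Serpinh1, Bcat1, Atp6v0d2, Yap1, Rab34, Zfp422, Adgra3 and Smap1, with a lower correlation of 0.96 to 0.98. Fkbp9, a prolyl isomerase of the endoplasmic reticulum, measured 31.7, 31.4 and 33.0 CPM in WT, 18.6, 20.8 and 20.4 CPM in AMPK-KO, 40.2, 40.1 and 41.5 CPM in early-stage and 25.2, 33.0 and 32.4 CPM in late-stage samples. Serpinh1, the collagen chaperone, and Yap1, a coactivator of the Hippo pathway, stood at 32.9 and 7.87 CPM in late-stage replicate 1. All 10 genes had their lowest late-stage value in that sample, as the 8 transcripts did.

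The 5 genes most like Ednrb were Lyve1, Cd163, Snx2, Emp1 and Qpct, with a lower correlation of 0.99. The 9 transcripts were left out of both rankings beforehand, and no gene of the pigment cell list was among the genes named from either ranking. Lyve1, a hyaluronan receptor of lymphatic endothelium and of resident macrophages, measured 202, 201 and 210 CPM in WT, 125, 127 and 108 CPM in AMPK-KO, 67.2, 64.4 and 73.0 CPM in early-stage and 22.9, 16.3 and 16.7 CPM in late-stage samples. Cd163, a macrophage scavenger receptor, measured 170, 163 and 161 CPM in WT, 96.9, 103 and 88.5 CPM in AMPK-KO, 45.2, 53.6 and 54.7 CPM in early-stage and 20.4, 15.9 and 13.8 CPM in late-stage samples. Like Ednrb, both were highest in WT and lowest in late-stage samples, with their highest late-stage value in replicate 1. Both rankings describe 6 samples per table that differ by group, and say nothing of shared function or control.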

How the data were processed

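TAMs were sorted from B16-F10 tumors, and their RNA was sequenced (Illumina). Reads were aligned by the authors with HISAT2 and assigned to genes by featureCounts, and the deposited values are raw counts, in 1 table per experiment, without normalization. Versions, strand and the handling of shared reads are not given in the sources used here. The methods write GRCh38 for the mouse genome, whereas the labels name GRCm38 and 54349 of the 55401 identifiers match GENCODE M21. Of the genes, 27883 (AMPK-KO and WT) and 27545 (early- and late-stage) had no count.

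Each table was fitted alone in edgeR 4.0.16 (R 4.3.3) after filterByExpr and TMM scaling, with the quasi-likelihood test and Benjamini-Hochberg adjustment over all 17532 or 17630 genes tested. DESeq2 1.42.0 was an alternative. The common biological coefficient of variation was 0.159 and 0.201. The members and lists were chosen with earlier results of these data known, so the 9 transcripts were given no p-value. Named genes are the 9 transcripts, list genes with an adjusted p under 0.05, the 5 pigment cell list genes with the highest level, marker genes, and the genes most like the members by log2(CPM + 1). Genes without counts and endothelin genes that did not pass were named after their values were seen. Exon lengths are unions over GENCODE M21 transcripts, and promoter windows are from RefSeq. The fit was tested on simulated data modelled on each table (AMPK-KO and WT, then early- and late-stage). Of 100 genes changed by 1 on the log2 scale, 67 and 59 were recovered. Of 100 changed by 2, 80 and 83 were. Among unchanged genes, 13 of 17332 and 8 of 17430 were called. A gene that did not pass may thus still differ. The alternatives were RLE factors, DESeq2, dropping the filter (1 count sufficed) or tightening it (10 counts or more in each library), a replicate block, and leaving out each library. Plots were drawn with matplotlib 3.10.9.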

Additional observations from a re-analysis of the deposited data

How the results depend on the processing

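The log2 fold changes of the 9 transcripts kept their direction in all 99 alternative values per comparison and moved by less than the spread between replicates (1 SD), although without late-stage replicate 1 those of Mlana and Sox10 between stages went from -0.41 to -0.21 and from -0.37 to -0.22. The calls between stages were less stable. With no filter beyond 1 count, 1 of the 9 transcripts (main value 7), 1 gene of the pigment cell list (main value 6) and 1 of the shared melanosome list (main value 2) were called lower in late-stage TAMs. With each library left out in turn these counts ran from 1 to 7, from 1 to 5 and from 1 to 5. In AMPK-KO TAMs the shared melanosome genes called higher (main value 3) ran from 0 to 4. DESeq2 called 1 endothelin gene lower in late-stage TAMs (main value 0). The log2 ratio of the summed 8 transcripts in AMPK-KO against WT was -0.54, and -0.57 without Dct. The number of genes called over the whole table differed by more than 1.5 times from the main count without WT replicate 3 (2414) or AMPK-KO replicate 2 (2419), against 3693, and between stages with no filter (936) or without early-stage replicate 1 (2835), early-stage replicate 2 (680), late-stage replicate 1 (853), late-stage replicate 2 (653) or late-stage replicate 3 (682), against 1619. Same-numbered samples did not deviate together (correlations of 0.22, -0.034 and 0.037 between genotypes and 0.05, -0.01 and 0.066 between stages). These values gave no sign of pairing by number, although so few samples cannot exclude it. A replicate block gave 3862 and 1417 calls, and 9 and 7 of the 9 transcripts.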
